A study of Mus musculus with 10 samples.

Results

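The comparison described here is that of undifferentiated mouse embryonic stem (ES) cells in which Smyd5 was knocked down with control ES cells. It used 2 of the 10 RNA-Seq libraries of the study, 1 of R1 ES cells that carried a lentiviral short hairpin RNA (shRNA) against luciferase (shLuc, the control) and 1 of R1 ES cells that carried an shRNA against Smyd5 (shSmyd5). R1 is an established mouse ES cell line. Both cultures were infected with lentivirus, selected with puromycin, and grown without feeder cells on gelatin in medium with LIF and 1.5 µM CHIR9901, an inhibitor of the kinase GSK3, for several passages before polyA RNA was taken. The labels name neither the hairpin nor a clone, and there was 1 library per condition, so no difference between these 2 libraries has a replicate check. The other 8 libraries are of embryoid bodies (EBs), aggregates in which the same cells differentiate without LIF, at 24 h and at day 6, 10 and 14, again with 1 shLuc and 1 shSmyd5 library at each time. Of the 22878 genes listed in the deposited files, 9329 had an RPKM (the read count divided by transcript length and by the size of the library) of at least 3 in 1 or both ES cell libraries, and these are the genes compared.

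SMYD5 belongs to the SMYD family of proteins with a SET and a MYND domain, and it trimethylates histone H4 at the lysine that gives the mark H4K20me3. H4K20me3 is a mark of heterochromatin, the compact and silent chromatin that covers repeats and centromere-near DNA, where it occurs with H3K9me3 and the HP1 proteins. ES cells keep a self-renewing state through a network of transcription factors around OCT4 (Pou5f1), SOX2 and NANOG, which LIF, through STAT3, and inhibition of GSK3 help to maintain in culture. A short hairpin RNA is processed to a small RNA that directs the cleavage of the matching messenger RNA.

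The libraries differed in depth and in base composition. On chromosome 8 the 4 shLuc EB libraries stood apart from the other 6 with higher values, given further on with the chromosomes. The shLuc ES library held 3895537 reads in genes, the fewest of the 10, and the shSmyd5 ES library 26283012, a ratio of 6.75, while the series ranged to 43377815. The median gene had 191 reads in shLuc and 1284 in shSmyd5 ES cells, and 57 and 8 genes had 3 reads or fewer. Each fold is log2 of RPKM plus 0.1 in shSmyd5 less the same in shLuc. The values in parentheses after it are a 95% interval (exact binomial) of the ratio of both read counts scaled by library size. This ratio leaves out the added 0.1, so at low values a fold can lie off the centre of its interval. The interval covers the error of counting alone and speaks of these libraries, not of the conditions. Folds were lower for GC-rich transcripts, with a rank correlation of -0.68 over 9034 genes, which share the same libraries. A fold is therefore given as measured and also freed of the trend of folds on GC content and transcript length over all genes. As measured, 1621 genes (17.4%) were higher by 1.5-fold or more and 2369 (25.4%) lower in shSmyd5. At 2-fold 422 (4.52%) were higher and 1051 (11.3%) lower. Freed of the trend, 834 (9.23%) were higher and 935 (10.3%) lower, and 439 (4.86%) and 712 (7.88%) met both criteria. Of the 9329 genes 8221 reached an RPKM of 3 in both libraries, 652 in shLuc alone and 456 in shSmyd5 alone, and the filter lets genes of the last 2 groups differ in 1 direction only, which gave 509 of the measured lower and 314 of the measured higher at 1.5-fold. The percentages are the background against which the counts below stand. Scaling by TMM would raise every measured log2 fold by 0.13 and DESeq2 size factors by 0.12, which turns the measured counts to 2164 higher and 1846 lower (TMM) and the share of higher genes from 40.6% to 54.0%, or at 2-fold from 28.6% to 46.5%. All genes had a median log2 fold of -0.07 as measured and 0.02 freed.

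Both libraries carried the marks of ES cells. Pou5f1, Nanog and Esrrb had RPKM values of 929.8 and 329, 238 and 184 and 290.3 and 166 in shLuc and shSmyd5 ES cells, and all 25 listed pluripotency factors reached an RPKM of 3. Of 16 mesoderm and primitive streak markers and of 32 Hox genes 0 reached it, and of 20 endoderm markers only the iron carrier Trf did. The summed RPKM of the mesoderm markers was 5.97 in shLuc and 5.33 in shSmyd5 ES cells, and that of the Hox genes 2.44 and 3.41. Of 25 fibroblast markers, which feeder cells would carry, 2 reached an RPKM of 3, Fstl1 (25.4 and 23.5) and Thy1 (3.82 and 3.30), and the list summed to 37.4 and 32.1. Of 14 trophoblast markers 2 reached it, with sums of 36.2 and 32.4, and of 17 neural markers in the files 5, with sums of 190.2 and 169. In bulk RNA, fewer cells of a type and less RNA per cell cannot be told apart.

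Smyd5 (mm9 chr6:85381983-85396429), the targeted gene, had an RPKM of 29.7 in the shLuc and 4.51 in the shSmyd5 library, from 414 and 444 reads. This is a log2 fold of -2.69 (-2.92 to -2.52), and -2.17 freed, the lowest fold among the 4 SMYD genes at an RPKM of at least 3. In the EB pairs, in order of time, the log2 folds of Smyd5 were -3.44, -4.71, -1.44 and -0.92, so the knockdown in ES cells lay between those of the early and the late EBs. Smyd4, another member of the family, had 7.18 and 3.15, a log2 fold of -1.16 (-1.47 to -0.91), and -0.95 freed. Smyd2, which methylates p53 and other proteins, had 9.49 and 8.95 (-0.08), and Smyd3 had 4.76 and 5.79 (0.28). Smyd1, of heart and skeletal muscle, was under an RPKM of 3 in both libraries.

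**Figure D1:**
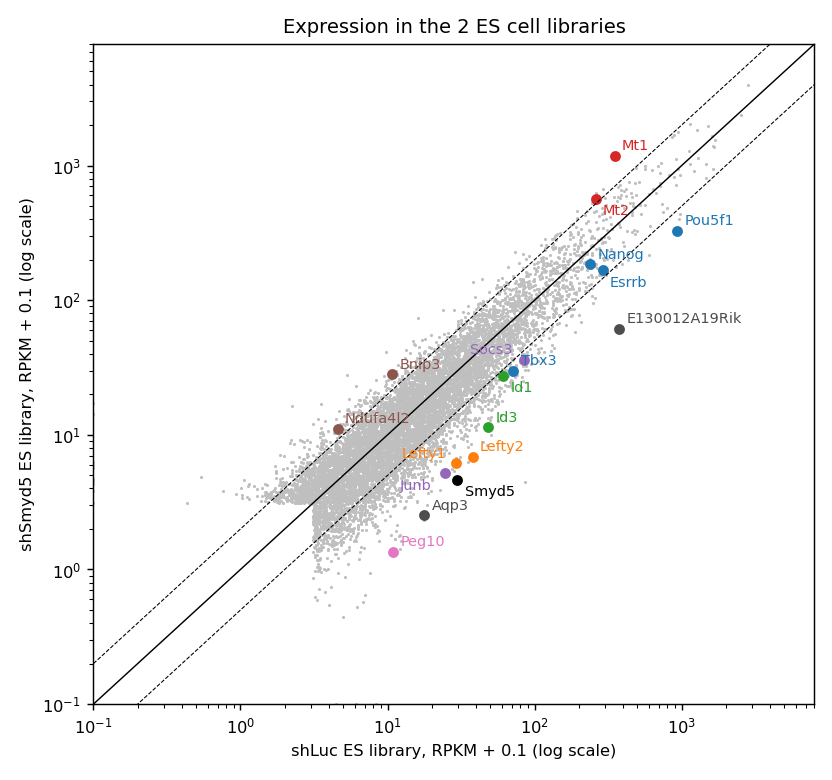
RPKM plus 0.1 of each of the 9329 genes in the shLuc (x axis) and the shSmyd5 ES library (y axis), both on log scales, with the line of equal values and dashed lines at 2-fold. Smyd5, Peg10, Aqp3, Lefty1, Lefty2 and Junb lie below the lower dashed line and Mt1 and Mt2 above the upper one.

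The genes that write, read and erase silent chromatin showed few shared shifts. Of 10 genes of H4K20 methylation and the HP1 proteins, 0 were at least 1.5-fold higher and 3 at least 1.5-fold lower (0% and 30%), and freed of the trend 0 were higher and 3 lower (0% and 30%). Suv420h2 (Kmt5c), the main enzyme of H4K20me3, had an RPKM of 36.9 in the shLuc and 17.6 in the shSmyd5 library, a log2 fold of -1.06 (-1.22 to -0.91), and -0.15 freed. L3mbtl2, a reader protein of a variant Polycomb complex, had 62.8 and 23.5, a log2 fold of -1.42 (-1.52 to -1.32), and -0.80 freed, and Cbx5, which encodes HP1α, had 29.5 and 22.5, a log2 fold of -0.39 (-0.47 to -0.31), and -0.82 freed. Suv420h2 thus passed 1.5-fold only as measured and Cbx5 only freed, while L3mbtl2 and the histone methyltransferase gene Whsc1 (7.15 and 4.48, -0.66 (-0.86 to -0.48), freed -0.78) passed in both. Of 27 genes of H3K9 methylation and silencing, 2 were at least 1.5-fold higher and 6 at least 1.5-fold lower (7.41% and 22.2%), but freed of the trend only 1 of 26 was higher and 0 were lower. Trim28, the corepressor KAP1 that brings H3K9 methylation to retroelements, had 970.0 and 434, a log2 fold of -1.16 (-1.18 to -1.14), and -0.21 freed. Of 25 Polycomb genes, 6 were at least 1.5-fold higher and 7 at least 1.5-fold lower (24% and 28%), and 1 was higher and 4 were lower by both criteria. Pcgf5, a RING-finger subunit of a variant PRC1, had 2.85 and 8.76, a log2 fold of 1.59 (1.03 to 2.28), and 0.98 freed, and the CBX subunit gene Cbx6 had 16.4 and 6.22, a log2 fold of -1.39 (-1.55 to -1.25), and -0.62 freed. Of 14 genes of DNA methylation, 2 were at least 1.5-fold higher and 2 at least 1.5-fold lower (14.3% and 14.3%). Dnmt3l, the cofactor of the de novo methyltransferases, had 122 and 184, a log2 fold of 0.59 (0.50 to 0.68), and 0.89 freed.

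Pluripotency factors differed in size of fold, and several but not all genes downstream of LIF signaling were lower as measured. Of the 25 pluripotency factors, 3 were at least 1.5-fold higher and 7 at least 1.5-fold lower (12% and 28%), and freed of the trend 2 were higher and 3 lower (8% and 12%). The 2 that were lower by both criteria were Pou5f1, a log2 fold of -1.50 (-1.54 to -1.46), and -0.94 freed, and the T-box factor Tbx3, with 71.8 and 29.8 and a log2 fold of -1.27 (-1.34 to -1.19), and -0.72 freed. LIF binds the receptor pair LIFR and gp130 (Il6st), which activates STAT3, and STAT3 induces its own inhibitors of the SOCS family. Of 14 genes of this pathway, 0 were at least 1.5-fold higher and 8 at least 1.5-fold lower (0% and 57.1%), with a median of -0.91 against -0.07 for all genes. Freed of the trend the median was -0.17 and 1 gene was lower, Junb. The receptors had log2 folds of 0.53 (0.35 to 0.74) for Lifr and 0.17 (0.02 to 0.33) for Il6st, and Stat3 had -0.42 (-0.53 to -0.31), freed -0.02. Among the targets, Socs3 had an RPKM of 84.6 in the shLuc and 36.1 in the shSmyd5 library (-1.22 (-1.32 to -1.13), freed -0.36). Pim3, a serine/threonine kinase, had 129.8 and 41.5 (-1.64 (-1.73 to -1.56), freed -0.58), and the AP-1 subunit Junb had 24.3 and 5.08 (-2.24 (-2.50 to -2.02), freed -1.20). Myc and Gbx2, also of this list, were not 1.5-fold lower. Myc had 32.0 and 30.4 (-0.08 (-0.22 to 0.07), freed 0.31) and Gbx2 54.8 and 47.2 (-0.21 (-0.33 to -0.09), freed 0.42). The median GC content of the 14 transcripts was 55.5%, against 50.9% for all genes.

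The promoter window of Socs3 is shown because this gene is the classical STAT3 target of the list. The window runs from 250 bases before to 50 after the RefSeq start (GRCm38.p6, chr11:117969317-117969616, minus strand), and the capitals mark TTCNNNGAA, the palindrome bound by STAT proteins, which reads alike on both strands and begins 154 bases before the start.
Socs3: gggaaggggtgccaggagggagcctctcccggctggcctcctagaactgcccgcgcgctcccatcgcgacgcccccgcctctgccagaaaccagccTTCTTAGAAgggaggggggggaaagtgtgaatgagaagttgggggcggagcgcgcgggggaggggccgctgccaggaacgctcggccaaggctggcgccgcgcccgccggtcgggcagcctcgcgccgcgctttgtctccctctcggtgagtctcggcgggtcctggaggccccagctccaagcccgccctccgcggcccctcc
Of the windows of 27025 genes, 9.55% hold this motif, and of 13 members of the LIF list with a window 2 do, Socs3 and Cish. A match describes the letters and shows no binding.

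Both Lefty genes, inhibitors of Nodal, were far lower in shSmyd5 ES cells. Nodal is a TGF-β ligand that signals with its co-receptor Cripto (Tdgf1) through activin receptors and SMAD2/3, and it induces Lefty1 and Lefty2, which block it. Lefty2 had an RPKM of 37.8 in the shLuc and 6.78 in the shSmyd5 library, a log2 fold of -2.46 (-2.65 to -2.31), and -2.24 freed. Lefty1 had 29.04 and 6.07, a log2 fold of -2.24 (-2.49 to -2.03), and -1.52 freed. The coding parts of the Lefty pair are alike, so reads shared between them may be split uncertainly. Nodal itself had 26.6 and 14.8 (-0.84 (-1.03 to -0.66), freed -0.25) and Tdgf1 254 and 289 (0.19 (0.13 to 0.24), freed -0.18), smaller folds than those of the Lefty genes. Smad7, an inhibitor within the cell, had 47.8 and 15.4 (-1.62 (-1.73 to -1.53), freed -0.84), the receptor gene Acvr1b 12.2 and 5.11 (-1.24 (-1.48 to -1.04), freed -0.79), and Furin, a protease that matures the ligands, 6.10 and 1.71 (-1.77 (-2.12 to -1.53), freed -0.75). In all, of 21 genes of Nodal and TGF-β signaling 1 was at least 1.5-fold higher and 9 at least 1.5-fold lower (4.76% and 42.9%), and the 5 lower by both criteria were Lefty1, Lefty2, Smad7, Furin and Acvr1b.

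The Id genes encode inhibitors of helix-loop-helix factors and are induced by BMP through SMAD1/5, and 2 of them were lower by both criteria. Id3 had an RPKM of 48.1 in the shLuc and 11.3 in the shSmyd5 library, a log2 fold of -2.08 (-2.32 to -1.86), and -1.90 freed, and Id1 had 61.2 and 27.4, a log2 fold of -1.16 (-1.34 to -0.97), and -1.04 freed. Id2 had 4.08 and 4.16, a log2 fold of 0.03 (-0.54 to 0.64), and -0.70 freed. The ligand Bmp4 had 50.2 and 53.4 (0.09 (-0.04 to 0.22), freed 0.35), the receptor Bmpr1a 7.06 and 10.9 (0.62 (0.42 to 0.83), freed 0.13) and the transducer Smad5 4.95 and 2.68 (-0.86 (-1.12 to -0.65), freed -1.16). Of 7 members at an RPKM of at least 3, 3 were lower by both criteria (Id1, Id3 and Smad5) and 0 higher. Of 18 genes of Wnt signaling, 1 was at least 1.5-fold higher and 7 at least 1.5-fold lower (5.56% and 38.9%), and by both criteria 2 were lower, the Wnt inhibitor Notum (16.3 and 4.18, -1.94 (-2.23 to -1.70), freed -1.20) and the homeobox gene Cdx1 (26.1 and 7.21, -1.84 (-2.08 to -1.63), freed -0.86).

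**Figure D2:**
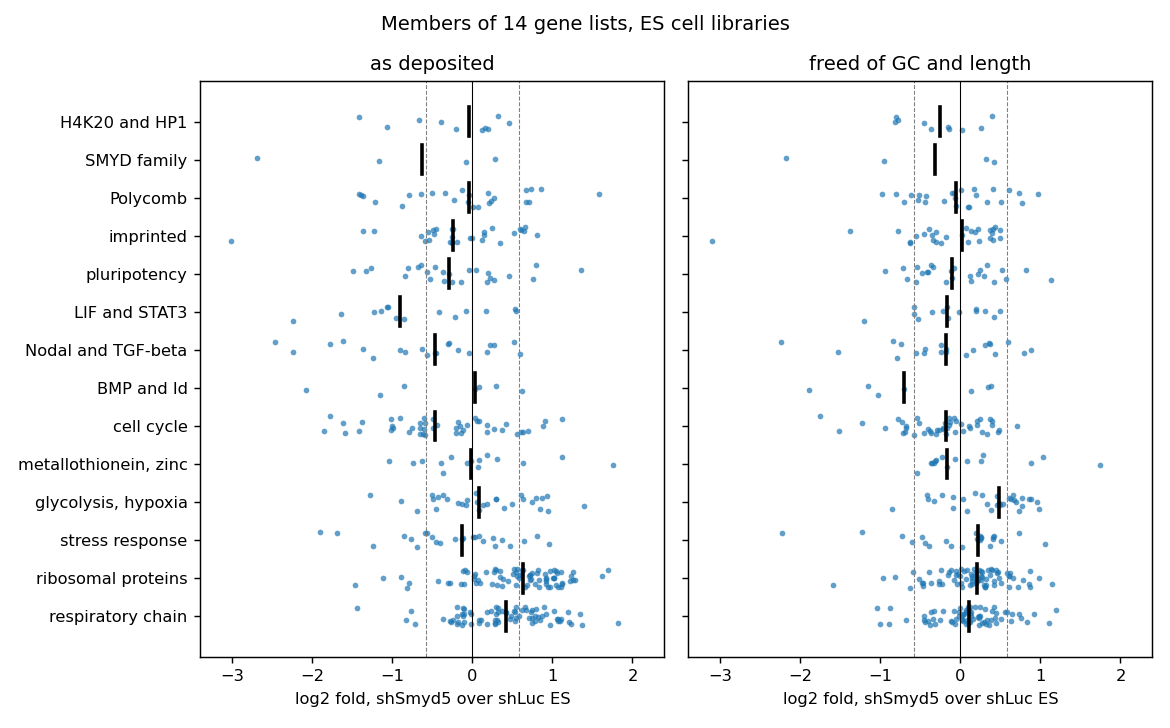
log2 fold, shSmyd5 over shLuc ES library (x axis), of the members of 14 gene lists (rows) at an RPKM of at least 3, as measured (left) and freed of GC content and transcript length (right). Points are genes, black bars medians and dashed lines 1.5-fold. The LIF and STAT3 median moves from -0.91 to -0.17 and that of glycolysis and hypoxia from 0.09 to 0.48.

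Metallothioneins, small cysteine-rich proteins that bind zinc and copper inside the cell, were higher in shSmyd5 ES cells. Mt1 (mm9 chr8:96702989-96704225) had an RPKM of 351 in the shLuc and 1183 in the shSmyd5 library, a log2 fold of 1.75 (1.67 to 1.84), and 1.74 freed. Mt2 had 259.7 and 565, a log2 fold of 1.12 (1.02 to 1.23), and 1.03 freed, and Mt3, with few reads, had 3.66 and 5.75, a log2 fold of 0.64 (-0.24 to 1.69), and 0.89 freed. Mt1 and Mt2 are neighbours of similar sequence on chromosome 8. Mtf1, the zinc sensor that induces them, had 4.41 and 5.04 (0.19 (-0.03 to 0.42), freed 0.28), and Slc30a1, a zinc exporter that MTF1 also induces, 5.21 and 4.0 (-0.37 (-0.63 to -0.12), freed -0.54). The zinc importers Slc39a7 and Slc39a1 had 55.9 and 27.2 (-1.04 (-1.16 to -0.92), freed -0.32) and 18.7 and 11.1 (-0.74 (-0.95 to -0.54), freed -0.37), and Hmox1, the heme oxygenase gene induced by metals and oxidants, 56.3 and 55.5 (-0.02). So within a list of 15 genes, the 3 higher by both criteria were the metallothioneins, and 0 of the other 12 was at least 1.5-fold higher, as measured or freed.

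The windows of Mt1 and Mt2, again from 250 bases before to 50 after the RefSeq start (GRCm38.p6, chr8:94178839-94179138, plus strand and chr8:94172368-94172667, plus strand), are shown for their metal response elements. Capitals mark the core TGCACNC or TGCGCNC on either strand.
Mt1: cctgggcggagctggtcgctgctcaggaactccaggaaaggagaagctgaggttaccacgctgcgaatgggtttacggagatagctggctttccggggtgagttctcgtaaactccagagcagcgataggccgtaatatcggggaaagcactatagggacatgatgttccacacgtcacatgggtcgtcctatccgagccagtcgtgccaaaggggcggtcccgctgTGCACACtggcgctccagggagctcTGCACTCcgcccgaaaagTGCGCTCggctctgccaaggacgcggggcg
Mt2: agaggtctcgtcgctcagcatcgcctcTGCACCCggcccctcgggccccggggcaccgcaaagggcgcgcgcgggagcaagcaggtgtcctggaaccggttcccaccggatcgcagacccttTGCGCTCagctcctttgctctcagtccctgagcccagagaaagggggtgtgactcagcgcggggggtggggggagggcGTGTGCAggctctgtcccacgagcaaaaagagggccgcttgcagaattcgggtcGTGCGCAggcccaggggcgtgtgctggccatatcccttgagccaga
Mt1 holds 3 matches and Mt2 4, while 28.2% of 27025 genes hold 1 or more. In the zinc list 5 of 11 members with a window do, among them Mt3 with 1 match and Slc30a1 with 2.

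More genes of glycolysis and the hypoxia response were higher than lower, most clearly once the trend was removed. Of 31 members, 9 were at least 1.5-fold higher and 3 at least 1.5-fold lower (29.03% and 9.68%), and freed of the trend 12 were higher and 1 lower (38.7% and 3.23%), with medians of 0.09 and 0.48. The 8 higher by both criteria included Bnip3, a mitophagy receptor induced by HIF (10.6 and 28.1, 1.40 (1.12 to 1.70), freed 0.76). P4ha1, a collagen prolyl hydroxylase subunit, had 3.72 and 7.29 (0.95 (0.65 to 1.31), freed 0.74), Vegfa, the angiogenic factor, 5.33 and 8.97 (0.74 (0.46 to 1.05), freed 0.96), and Egln3, an oxygen-sensing hydroxylase, 6.16 and 9.58 (0.63 (0.33 to 0.96), freed 0.86). Among the enzymes, Ldhb, a lactate dehydrogenase subunit, had 79.7 and 143 (0.84 (0.72 to 0.97), freed 0.98) and Pgk1 115 and 199 (0.80 (0.71 to 0.89), freed 0.77). Aldoa had 718 and 878 (0.29 (0.25 to 0.33), freed 0.88), past 1.5-fold only when freed. Others were lower. Slc16a3, an exporter of lactate, had 33.4 and 13.7 (-1.28 (-1.44 to -1.13), freed -0.42), Eno1 738 and 518 (-0.51 (-0.55 to -0.47), freed -0.24) and Slc16a1 35.4 and 25.8 (-0.45 (-0.56 to -0.35), freed -0.85). Hif1a had 20.3 and 26.7 (0.39 (0.27 to 0.52), freed -0.10). Ndufa4l2, a mitochondrial protein gene induced by HIF that is in none of the lists, had 4.47 and 11.01 (1.28 (0.71 to 1.96), freed 1.74), among the 10 highest of all freed folds.

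The window of Bnip3 (GRCm38.p6, chr7:138909457-138909756, minus strand, 250 bases before to 50 after the start) is shown as that of the member with the highest measured fold. Capitals mark ACGTG, the core of the hypoxia response element, on either strand, where 2 matches on opposite strands overlap.
Bnip3: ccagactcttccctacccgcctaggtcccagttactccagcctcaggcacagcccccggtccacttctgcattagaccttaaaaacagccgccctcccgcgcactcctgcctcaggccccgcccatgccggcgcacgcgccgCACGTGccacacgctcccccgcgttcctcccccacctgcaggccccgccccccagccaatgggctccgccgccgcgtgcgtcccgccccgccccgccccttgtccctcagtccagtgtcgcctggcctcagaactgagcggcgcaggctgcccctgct
Of the windows of 27025 genes 21.8% hold ACGTG. In the list 21 of 28 members with a window (75%) do, and so do 8 of the 11 among them that were at least 1.5-fold higher freed of the trend.

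Stress, amino acid and cell death genes went both ways. The integrated stress response acts through the factor ATF4, which induces genes of amino acid synthesis and uptake and the factor CHOP (Ddit3). Atf4 had 157 and 172 (0.13 (0.05 to 0.21), freed 0.51) and Ddit3 6.38 and 12.5 (0.96 (0.44 to 1.54), freed 1.06). In contrast, Phgdh, the first enzyme of serine synthesis, had 50.5 and 13.4 (-1.90 (-2.06 to -1.75), freed -1.23), and Slc7a11, the cystine carrier, 7.71 and 2.33 (-1.69 (-1.90 to -1.55), freed -2.24). Of 25 members, 1 was higher and 3 were lower by both criteria. Among 17 apoptosis regulators, the anti-apoptotic Bcl2l1 had 22.7 and 8.15 (-1.46 (-1.67 to -1.28), freed -0.84) and the pro-apoptotic Bad 7.03 and 2.18 (-1.64 (-2.15 to -1.21), freed -0.79). Of 26 p53 pathway genes, 5 were at least 1.5-fold higher and 9 at least 1.5-fold lower (19.2% and 34.6%) and only Phlda3, an inhibitor of AKT, was lower by both criteria (40.5 and 12.7, -1.66 (-1.86 to -1.48), freed -0.71).

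More genes of the cell cycle were lower than higher. Of 46 members, 6 were at least 1.5-fold higher and 21 at least 1.5-fold lower (13.04% and 45.7%), and 10 were lower and 1 higher by both criteria, with medians of -0.47 as measured and -0.19 freed. The D cyclins, which start the G1 phase with CDK4/6, were lower for each gene: Ccnd1 had 54.8 and 27.1 (-1.02 (-1.11 to -0.92), freed -0.78), Ccnd2 4.38 and 1.20 (-1.79 (-2.17 to -1.56), freed -1.75) and Ccnd3 208 and 69.3 (-1.59 (-1.66 to -1.52), freed -0.71). Among inhibitors of the cyclin-dependent kinases, Cdkn2a had 5.78 and 1.53 (-1.85 (-2.59 to -1.23), freed -1.52), Cdkn2d 4.23 and 1.32 (-1.61 (-2.33 to -1.01), freed -1.23) and Cdkn1b 9.68 and 6.10 (-0.66 (-0.94 to -0.38), freed -0.94), lower by both criteria and, for Cdkn2a and Cdkn2d, from 30 reads each in shLuc. Cdkn1a was lower only as measured (-0.62 (-0.87 to -0.37), freed -0.17) and Cdkn1c in neither way (-0.49 (-0.75 to -0.23), freed 0.36), while Cdkn2b and Cdkn2c were under an RPKM of 3 in both libraries. Mcm2, a subunit of the replicative helicase, had 105 and 40.2 (-1.38 (-1.46 to -1.31), freed -0.73). The 1 gene higher by both criteria was Mki67, the proliferation antigen Ki-67, with 13.03 and 24.005 (0.88 (0.77 to 0.99), freed 0.71).

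Imprinted and germline genes each held a few members with low values. Peg10, derived from a retrotransposon and expressed from the paternal allele, had an RPKM of 10.8 in the shLuc and 1.25 in the shSmyd5 library, a log2 fold of -3.01 (-3.32 to -2.90), and -3.10 freed, the lowest freed fold among genes at an RPKM of at least 10. Plagl1, a zinc finger factor, had 3.61 and 1.48 (-1.23 (-1.61 to -0.96), freed -1.39) and Slc22a18 6.43 and 2.44 (-1.36 (-1.86 to -0.92), freed -0.79). These 3 were the imprinted genes lower by both criteria, and 0 were higher, of 30 at an RPKM of at least 3. Grb10, an adaptor of insulin signaling, had 58.2 and 41.8 (-0.48 (-0.55 to -0.40), freed -0.45). Among 9 germline genes, Tex19.1, which restrains retrotransposons in germ cells, had 22.7 and 7.21 (-1.64 (-1.88 to -1.42), freed -1.40). Epithelial genes were split: Epcam, an adhesion protein of ES cells, had 49.7 and 85.4 (0.78 (0.66 to 0.91), freed 1.08), while Krt8 had 6.85 and 2.23 (-1.58 (-2.03 to -1.19), freed -0.94) and the claudin gene Cldn4 69.4 and 25.6 (-1.44 (-1.57 to -1.31), freed -0.80). Col4a1, a basement membrane collagen, had 5.09 and 1.26 (-1.93 (-2.28 to -1.75), freed -1.09).

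Ribosomal protein genes and subunits of the respiratory chain were higher as measured and less so freed of the trend. Of 81 cytosolic ribosomal protein genes 44 were at least 1.5-fold higher and 5 at least 1.5-fold lower (54.3% and 6.17%), with a median of 0.64, and freed of the trend 12 were higher and 5 lower (15% and 6.25%), with a median of 0.20. Rps12 had an RPKM of 118 and 286 (1.28 (1.12 to 1.44), freed 0.78) and Rpl36 142 and 309 (1.12 (0.96 to 1.29), freed 1.15). Rps14 went the other way, with 599 and 217 (-1.46 (-1.54 to -1.39), freed -1.60). Of 77 respiratory chain subunits 30 were at least 1.5-fold higher and 4 at least 1.5-fold lower (38.96% and 5.19%), with a median of 0.42, and freed of the trend 8 were higher and 5 lower (10.5% and 6.58%), with 0.10. Ndufa6, of complex I, had 55.98 and 142 (1.35 (1.13 to 1.57), freed 0.92) and Ndufv1, the flavoprotein of the same complex, 87.1 and 32.1 (-1.44 (-1.56 to -1.32), freed -0.87). Ribosomal protein genes have many processed copies in the genome, so reads of a member may be shared with them. Replication-dependent histone genes, whose messages lack a polyA tail and whose copies are near-identical, mostly had few reads. Of 66 in the files 31 reached an RPKM of 3. The 7 higher by both criteria, Hist1h3e among them with 1 read in shLuc against 77 in shSmyd5 (3.18 (0.92 to 8.77)), had 1 to 8 reads in shLuc and reached that RPKM in the shSmyd5 library alone, and the intervals of 5 of them held 0, so their number is no result. Of the members with more reads, 2 were lower by both criteria, the H2A genes Hist1h2ao with 360.0 and 176 (-1.03 (-1.13 to -0.93), freed -0.63) and Hist1h2ad with 155 and 101 (-0.62 (-0.79 to -0.45), freed -0.71).

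Other lists are given by examples. In the FGF and ERK list 0 of 25 members passed both criteria, with Egr1, an immediate early factor, at 18.6 and 9.43 (-0.97 (-1.16 to -0.80), freed -0.52) and Erf, a repressor downstream of ERK, at 69.4 and 28.3 (-1.29 (-1.39 to -1.21), freed -0.33). Hes1, a Notch target, had 20.6 and 13.1 (-0.65 (-0.90 to -0.41), freed -0.67) and was the 1 member past both criteria of 12 Notch genes. Of 18 genes of the Myc, Lin28 and let-7 axis, Mycl1 (9.79 and 3.56, -1.43 (-1.70 to -1.21), freed -0.76) and Igf2bp1, an RNA-binding protein of early development (84.02 and 37.1, -1.18 (-1.23 to -1.13), freed -0.96), were lower by both criteria. Of 21 genes of cholesterol synthesis, Ebp, a sterol isomerase, was lower (17.8 and 9.46, -0.91 (-1.16 to -0.66), freed -0.83), and of 16 heat shock genes Hspa1a (3.39 and 1.10, -1.54 (-2.10 to -1.13), freed -0.63), which has a near-identical copy in Hspa1b. Eif5a, a translation factor, had 952 and 402 (-1.24 (-1.28 to -1.21), freed -0.86), Psmd13, of the proteasome lid, 85.7 and 30.1 (-1.51 (-1.63 to -1.39), freed -1.26), Psmb4, of its core, 247 and 148 (-0.74 (-0.83 to -0.65), freed -0.87), and Zcrb1, of the minor spliceosome, 4.55 and 15.03 (1.70 (1.09 to 2.43), freed 0.90). Eif5a, Psmd13 and Psmb4 do not stand for their lists. In the translation and the proteasome list more members were at least 1.5-fold higher than lower as measured. Examples are Eif3e (1.10, freed 0.32), Eif4e (0.92, freed 0.33), Psma4 (1.00, freed 0.34) and Psma2 (0.87, freed -0.19). Of 32 genes of integrins, actin and adhesion, 3 passed both criteria, the tropomyosin genes Tpm2 (1.62 and 3.24, 0.95 (0.32 to 1.75), freed 1.42) and Tpm3 (114 and 74.6, -0.62 (-0.70 to -0.53), freed -0.68) in opposite directions and Rac1, a small GTPase of the actin cytoskeleton (56.8 and 96.6, 0.76 (0.66 to 0.88), freed 0.60). Of 76 mitochondrial ribosomal protein genes 23 were at least 1.5-fold higher and 6 at least 1.5-fold lower (30.3% and 7.89%), and freed of the trend 7 were higher and 7 lower (9.21% and 9.21%). Of 14 long non-coding RNAs, 7 were higher as measured and 0 freed, among them the snoRNA host Gas5 (34.1 and 70.1, 1.04 (0.91 to 1.18), freed 0.54). Among early fate genes, Otx2, a homeobox factor of the primed state and the forebrain, had 2.70 and 5.04 (0.88 (0.32 to 1.53), freed 0.82) and Lef1, a transcription factor of Wnt signaling, 2.55 and 5.14 (0.98 (0.51 to 1.55), freed 0.78), both higher, while Grhl2, of epithelial fate, had 6.92 and 3.51 (-0.96 (-1.21 to -0.74), freed -0.78), the neuronal tubulin gene Tubb3 58.4 and 20.03 (-1.54 (-1.69 to -1.40), freed -0.85) and Sox21 3.26 and 1.07 (-1.52 (-2.02 to -1.18), freed -0.64). Otx2, Lef1 and Grhl2 are of the primed epiblast list, in which more members were at least 1.5-fold lower than higher as measured. Otx2 and Lef1 were the only ones higher. Besides Grhl2, the lower ones included Sox3 (-1.92, freed -0.55) and Foxd3 (-1.33, freed -0.12).

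Over all genes, those with the lowest freed folds at an RPKM of at least 10 held further genes outside the lists. Aqp3, a channel for water and glycerol, had an RPKM of 17.7 in the shLuc and 2.43 in the shSmyd5 library, a log2 fold of -2.81 (-3.18 to -2.55), and -2.54 freed. Plac8, a small cysteine-rich protein gene, had 10.3 and 4.04 (-1.33 (-1.88 to -0.79), freed -2.29) and H2-M5, a non-classical MHC gene, 18.5 and 4.87 (-1.91 (-2.25 to -1.60), freed -1.85). The unnamed transcripts 2210411K11Rik, 4930539J05Rik and Gm949 completed the 10 with Peg10, Lefty2, Smyd5 and Id3. At the other end stood, after Mt1 and Ndufa4l2, Naca, which shields new proteins at the ribosome (25.3 and 52.8, 1.06 (0.97 to 1.16), freed 1.46), the nucleosome-binding Hmgn1 (139 and 307, 1.14 (1.04 to 1.24), freed 1.44) and the mucin-like Pdpn (5.16 and 15.2, 1.54 (1.15 to 1.99), freed 1.43). With 2900097C17Rik the freed fold was 2.05 and the measured one 0.13 (-0.05 to 0.32), so its place rests on the trend. Gm98, Lctl, Agbl5 and Pcbd2 were the others. Where a further criterion was set, an adjusted p of 0.001 in edgeR's exact test at a coefficient of variation taken as 0.2, below the 0.332 and 0.329 estimated in the EB tests, so that it compares these libraries and not the conditions, 39 genes passed, 38 lower and 1 higher, the latter 1810022K09Rik (16.1 and 73.04). The 38 included Smyd5, Peg10, Aqp3, Lefty1, Lefty2, Junb and E130012A19Rik.

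Many genes around Smyd5 were lower in shSmyd5 ES cells. In bins of 5 Mb along the genome, the bins of chromosome 6 from 80 to 85 and from 85 to 90 Mb (mm9) had median freed log2 folds of -0.39 (21 genes) and -0.31 (32 genes, Smyd5 among them), the lowest and the third lowest of 150 bins with at least 20 genes. The next bin, from 90 to 95 Mb, had -0.48 over 11 genes. Over these 15 Mb, without Smyd5, 49 of 63 genes (77.8%) had a freed fold below 0, against 48.1% of all genes, and the median was -0.39, against 0.05 for the rest of chromosome 6 (309 genes). The same stretch was low in the 4 EB pairs, with medians in order of time of -0.66, -0.38, -0.23 and -0.14, against 0.02, -0.09, 0.01 and 0.05 for all genes. Of 50 of its genes with a freed fold in all 5 pairs, 20 (40%) were below 0 in each, against 6.94% of 6976 genes. Such lowering was also found elsewhere, at the cut used here only on chromosome 8. That chromosome was low as a whole in the EB pairs, as given further on. Of the 150 bins, 5 had medians below -0.1 in all 5 pairs, 4 on chromosome 8 and 1 on chromosome 6, and 1 bin was above 0.1 in all 5. Chromosome 8 from 105 to 110 Mb, for example, had -0.23 in ES cells and -0.39, -0.63, -0.45 and -0.45 in the EB pairs. The stretch around Smyd5 was chosen after the values were seen, so it gets no test.

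Cct7, a chaperonin subunit whose start lies next to Smyd5, had an RPKM of 166 and 83.3 in the ES libraries (-1.0 (-1.06 to -0.93), freed -0.54). Spr, an enzyme of tetrahydrobiopterin synthesis, had 37.1 and 11.7 (-1.66 (-1.89 to -1.45), freed -1.04), Ino80b, of a chromatin remodeler, 13.98 and 3.34 (-2.03 (-2.47 to -1.65), freed -1.16), Paip2b, a regulator of translation, 18.1 and 8.99 (-1.0 (-1.19 to -0.83), freed -1.18), and the hormone gene Trh 188 and 58.2 (-1.69 (-1.78 to -1.60), freed -1.37). Mcm2, of the cell cycle list, and Mrpl19, of the mitochondrial ribosome list, also lie in it. Against the mean of the 10 libraries, the median log2 difference of 38 genes of the stretch expressed in every library was -0.03 in shLuc and -0.53 in shSmyd5 ES cells, and within each EB pair shSmyd5 was the lower. Genes of the stretch are part of the counts above, and what moved them was not tested.

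**Figure D3:**
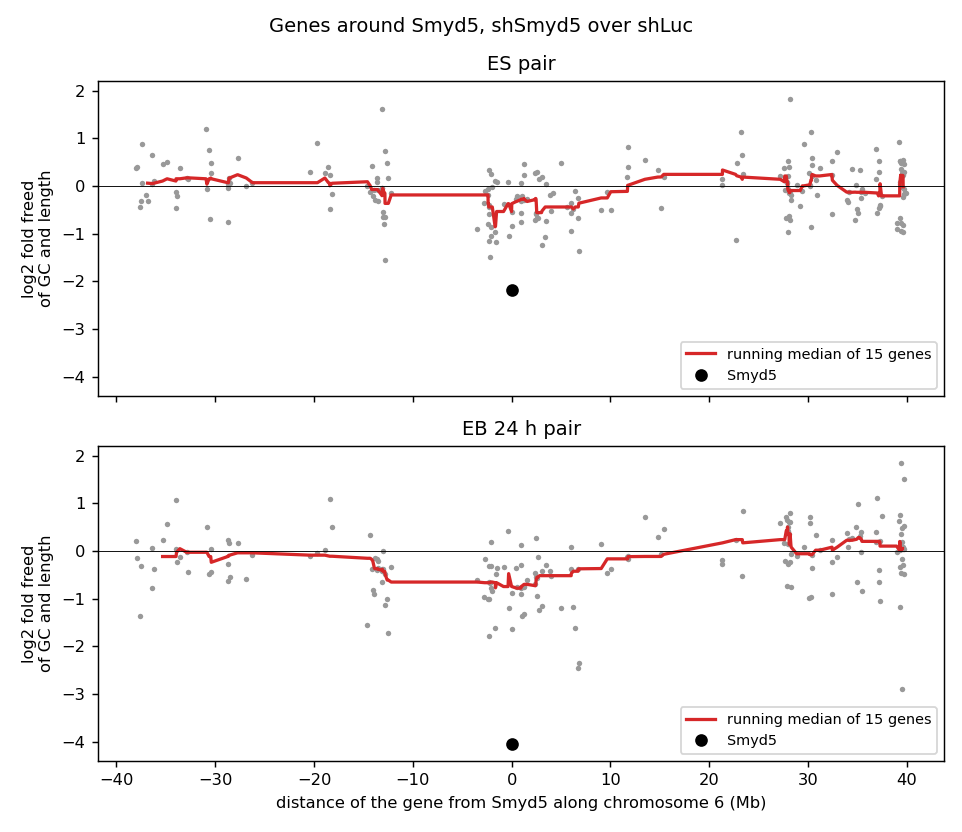
log2 fold freed of GC content and transcript length (y axis) of genes within 40 Mb of Smyd5 on chromosome 6, by distance of their starts (x axis, Mb), in the ES (top) and the 24 h EB pair (bottom). Grey points are genes, the red line a running median of 15 genes and the black point Smyd5. The line dips around Smyd5 in both pairs, and the stretch's median is -0.39 in ES cells and -0.66 at 24 h.

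By chromosome, the ES pair stood apart from the EB pairs on chromosome 8. In ES cells the median freed fold of 533 genes of chromosome 8 was -0.07, within a range over chromosomes from -0.11 (chromosome 11, 779 genes) to 0.08. In the EB pairs it was, in order of time, -0.36, -0.44, -0.37 and -0.42, while all other chromosomes there lay between -0.15 and 0.11. Against the mean of the 10 libraries the 4 shLuc EB libraries stood at 0.20 to 0.23 on this chromosome, the shLuc ES library at -0.08 and the 5 shSmyd5 libraries at -0.21 to -0.12. So the 4 shLuc EB libraries were the high ones. Mt1, Mt2, Junb and Col4a1 lie on chromosome 8, and their EB folds are to be read beside this, and its part in them was not tested.

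**Figure D4:**
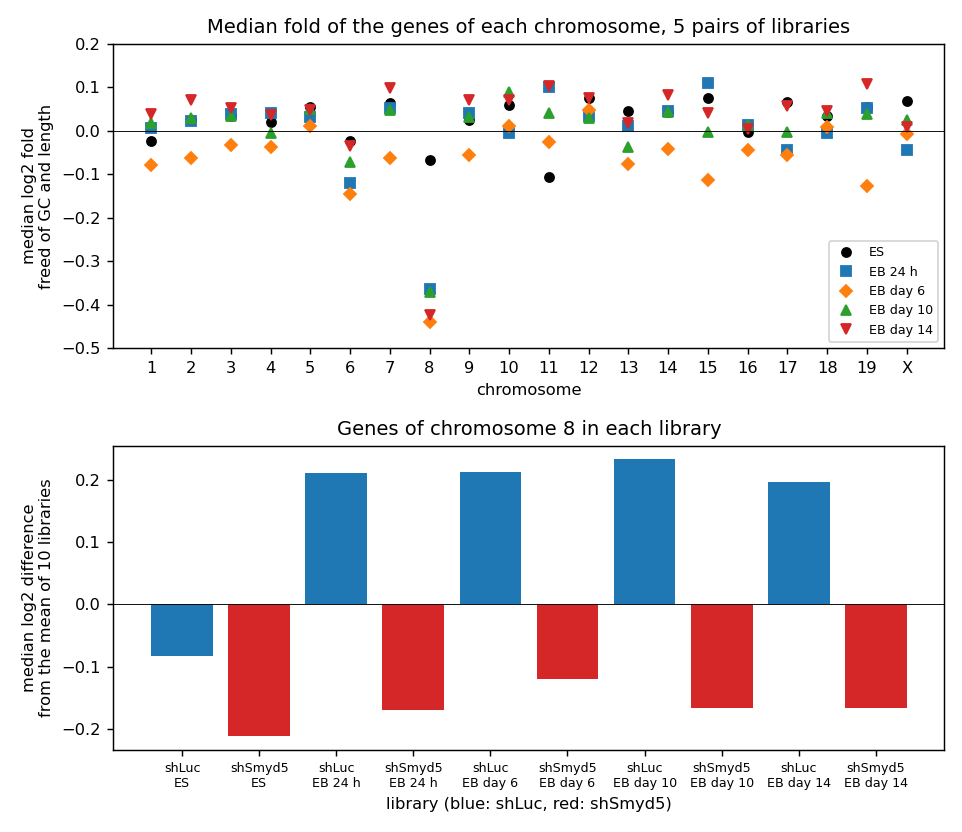
Top, median log2 fold freed of GC content and length of the genes of each chromosome (x axis), 1 symbol per pair of libraries. Bottom, median log2 difference of chromosome 8 genes from the mean of the 10 libraries, 1 bar per library. Chromosome 8 lies between -0.44 and -0.36 in the 4 EB pairs and at -0.07 in ES cells, and the bars of the 4 shLuc EB libraries reach 0.20 to 0.23.

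Whether the knockdown had another effect in ES cells than in EBs was asked of edgeR's quasi-likelihood test, applied to the difference between the ES fold and the mean of the EB folds, in which the 4 EB stages give the spread and the ES pair is assumed to vary likewise. Of 12277 genes 0 passed an adjusted p of 0.05 (0% higher, 0% lower), and 864 had an unadjusted p under 0.05. DESeq2 called 10 of 5850 genes, all lower in ES cells. Neither test was freed of the trend on GC content, which differed between the pairs. The rank correlation of the fold with GC content was -0.68 in ES cells. In the EB pairs it was, in order of time, 0.57, -0.02, -0.39 and 0.32. A GC-rich transcript can thus differ in direction between ES cells and some EB pairs by the trend alone. The lowest adjusted p was that of E130012A19Rik, an uncharacterised transcript with an RPKM of 378 in the shLuc and 61.1 in the shSmyd5 library (-2.62 (-2.68 to -2.57), freed -1.18) and EB log2 folds of 1.35, 0.87, 0.85 and 1.53. Its GC content was 67.0%, and freed of the trend its EB log2 folds were 0.30, 1.41, 1.78 and 1.39. Its difference, not freed, was -3.74 with an adjusted p of 0.213 in edgeR, and from 9.59e-16 to 0.973 over the alternatives. Peg10 was opposite in direction too, at -3.01 in ES cells and 2.09, 2.08, 0.36 and 0.40 in EBs (edgeR adjusted p 0.677, range over the alternatives 3.63e-05 to 0.973). Col4a1 had EB log2 folds from 1.60 at 24 h to 3.58 at day 6, against -1.93 in ES cells. The calls of DESeq2 were E130012A19Rik, Col4a2, Peg10, Gata4, Col4a1, H19, Fam129b, Krt8, C77080 and Amotl2. Among them, Gata4 (1.64 and 0.48) and H19 (0.96 and 0.09) were under an RPKM of 3 in both ES libraries.

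A shared effect over the 4 EB stages was tested in the same tool with the stage as a block, to set the ES values beside it. The 4 stages stood in for replicates, since each stage had 1 library per condition. It called 6 of 12276 genes, all higher (0.0489%, with 0% lower), and 1702 had an unadjusted p under 0.05. The 6 genes, Car12, Gkn2, Gm4980, Lpar3, Scube2 and Tinagl1, were under an RPKM of 3 in both ES libraries. Without the 24 h pair 79 genes passed, and without any other pair 0. Chromosome 8 held 175 of the 856 genes lower at an unadjusted p under 0.05, which is 26.8% of its 652 genes against 6.97% of all. Smyd5 had a shared EB log2 fold of -2.63 ± 0.63 (SE, edgeR adjusted p 0.140). Near the threshold, Grb10 had -1.78 ± 0.23 (adjusted p 0.0513 in edgeR), with -0.48 in ES cells, and Dnmt3l 1.86 ± 0.26 (adjusted p 0.0520 in edgeR), with 0.59. Over their alternatives the adjusted p ranged from 6.28e-12 and 2.43e-08 to 1 for Grb10 and Dnmt3l.

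Few of the larger ES folds were repeated in sign throughout the EBs. Freed of the trend, 231 genes (2.56%) were at least 2-fold lower and 169 (1.87%) at least 2-fold higher in ES cells. Of 96 of the lower genes measured in all pairs, 20 (20.8%) were lower in all 4 EB pairs, against 13.3% of 6976 genes, and of 103 of the higher, 26 (25.2%) were higher in all 4, against 14.7%. Among the 20 were Smyd5, Trh, Cdc42ep4, a regulator of the actin cytoskeleton (59.3 and 14.04, -2.07 (-2.19 to -1.96), freed -1.25), and Cenpb, which binds centromere repeats (35.1 and 8.05, -2.11 (-2.28 to -1.97), freed -1.06). Among the 26 were Mt2, Ddit3, Tfam, which packs mitochondrial DNA (10.8 and 27.3, 1.33 (1.15 to 1.53), freed 1.05), Bhlhe40, a repressor of the clock and of differentiation (8.11 and 17.1, 1.06 (0.83 to 1.33), freed 1.13), and Pdpn. Mt1 had EB log2 folds of 2.18, 2.24, 0.44 and -0.11 in order of time, and Bnip3 3.15, 0.94, 0.57 and 0.25. Lefty2 had -1.63, -1.38, -0.35 and -2.14, and Id3 0.58, 0.94, -1.04 and -0.08.

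**Figure D5:**
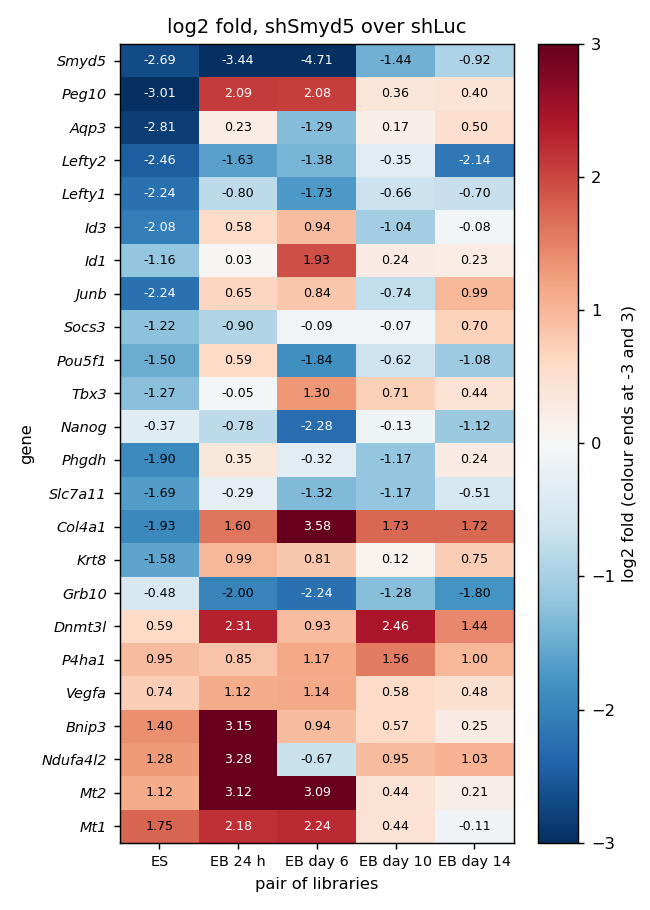
log2 fold, shSmyd5 over shLuc, as measured, of 24 genes (rows) in the 5 pairs of libraries (columns), with each value printed and coloured from -3 (blue) to 3 (red). Smyd5 is below 0 in every column, and Peg10 is at -3.01 in ES cells and above 0 in the 4 EB pairs.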

How the data were processed

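RNA-Seq of polyA RNA was compared between 1 shLuc and 1 shSmyd5 library of R1 ES cells, beside 8 EB libraries. Reads of single-end runs were mapped by the authors to mm9 (Bowtie2 and CASAVA are named in the submitters' processing notes, with no version given in the sources used here), and the deposited files give whole read counts and RPKM for 29257 RefSeq transcripts. The cDNA does not mark strand. For each of 22878 symbols the transcript with the highest mean read count over the 10 libraries was used. Reads in genes ranged from 3895537 to 43377815, and the exact binomial 95% intervals give the counting error of the read ratio behind each ES fold.

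GC content and coordinates came from the mm9 annotation (21621 symbols matched, 1257 not). The trend was an additive spline (6 knots) on GC content and log2 length, over transcripts of at least 200 bases. EB tests used edgeR 4.0.16 where the mean RPKM was at least 1, with limma 3.58.1 and DESeq2 1.42.0 as alternatives, in R 4.3.3. Other steps used Python 3.11.15. Promoters came from RefSeq tables of GRCm38.p6. Nothing says that libraries came from separate cultures. In the EB tests the p-values rest on the spread of the knockdown difference over the 4 stages. That spread mixes differences between stages with variation between samples, which may be technical. The calculations were also run on simulated data with known changes. For the folds these held counting error but no variation between cultures. For the tests they held no knockdown effects that varied between EB stages. They check the calculations and not the spread in these data.

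The members and the 48 gene lists were chosen with earlier results of these data known. Genes were named by rule: in each list up to 4 members with the largest measured fold of at least 1.5, an interval leaving out 0 and the same sign freed, the 10 lowest and 10 highest freed folds at an RPKM of at least 10 and 50 reads or more, and 5 genes in each direction per EB test. Further members of the lists, the genes near Smyd5 and those of same direction in EBs were chosen after their values were seen. ChIP-Seq data were not analysed here. The values of 1 further gene are not reported here.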

Additional observations from a re-analysis of the deposited data

How the results depend on the processing

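With 1 ES library per condition, depth limits genes of few reads, and the spread between cultures is unknown. Genes at least 1.5-fold higher, 1621 as reported, numbered 1043 at an RPKM of at least 10, 3087 with no filter, 834 freed of GC content and length, and 1 with the edgeR exact test at an assumed variation also required. Those at least 1.5-fold lower, 2369 as reported, numbered 1486, 4108, 935 and 38. At 2-fold, 422 higher genes became 258, 1113, 169 and 1 under the same alternatives, 670 with TMM and 643 with DESeq2 size factors, and 1051 lower genes became 626, 1946, 231 and 38. Fewer genes were tested at the RPKM of 10 and more with no filter. Freed of the trend, an RPKM of at least 10 gave 468 higher and 550 lower at 1.5-fold and 68 and 128 at 2-fold (169 and 231 as reported), a pseudocount of 1 gave 93 and 151 at 2-fold, and a trend on GC only 302 higher. Of all list members, 213 were higher and 210 lower as measured, and 92 and 94 freed. Of 167 genes named by rule, 86 kept their side of 1.5-fold freed of the trend, 80 fell under it and 1 passed it, 160 kept it with TMM, and 12 with the assumed variation. None changed direction past the threshold under the alternatives run. That outcome was largely set beforehand and gives no support. The rule for list members asked for the same sign freed, and the scaling and pseudocount settings are too small a change to reverse a fold of at least 1.5.

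The EB test called 6 genes, and 639 by DESeq2, 1 by limma, 0 by limma freed of the trend, 0 with DESeq2 size factors, 179 with no filter, 0 without the stage block, and 0 to 79 leaving out each stage in turn. The test of ES against EBs called 0 genes, 10 of 5850 by DESeq2 and 1 with no filter, and 0 leaving out each stage. Added after the data were seen, the median of chromosome 8 in ES cells was -0.31 as a plain fold, that of chromosome 11 -0.34, or -0.15 with a trend on GC only, and that of the stretch around Smyd5 -0.63 as a plain fold. What makes these values differ was not tested. In the EB test the stage is the block that pairs the libraries. Within ES cells no paired analysis was possible because each condition has 1 library, and the labels give no replicate numbers.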
